A study of Homo sapiens with 8 samples.

Results

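The comparison of eKD2 with eKD1 set side by side SK-N-MC cells in which the same enhancer was repressed through different guide RNAs. SK-N-MC is an established Ewing sarcoma cell line. Both groups carried dCas9-KRAB, a Cas9 without nuclease activity that is fused to a repressor domain, and in each group a guide of its own placed this repressor at a GGAA-repeat enhancer that serves LOXHD1. Control cells are labelled as carrying an empty dCas9-KRAB virus, with no guide named. All cells had been infected at a multiplicity of infection of 10, selected for 3 days in puromycin at 1 μg/ml and used within 5 passages, and the cells of eKD1, eKD2 and the control group shown here were then held for 16 h in 1% oxygen. Hypoxia, the vector and the selection were therefore shared, and the guide changed together with the infected cell population, so that the parts of these in a difference cannot be told apart. The comparison rested on 4 of the 8 libraries, 2 of eKD1 and 2 of eKD2, and the 2 control hypoxia libraries served as a reference for levels. They also entered a second fit of all 8 libraries, together with 2 libraries of control cells in normoxia. That fit was used only to estimate the spread of the same comparison from more libraries.

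Expression was measured by RNA sequencing and is given in FPKM, fragments scaled to transcript length and to the mapped total, which allows levels to be set side by side between genes. A gene entered the comparison if it reached 5 FPKM in at least 2 of the 4 libraries, which held for 10786 of 60332 genes. Just inside this limit lay ME1, at 3.82 and 3.78 FPKM in eKD1 against 5.10 and 5.06 FPKM in eKD2. Just outside lay the stress-induced cytokine GDF15, which was listed at 0 in both eKD1 libraries but had 5.80 and 1.11 FPKM in eKD2. Differences are eKD2 minus eKD1 on log2(FPKM + 1), a scale that understates the change of low genes. A gene was called where the limma test gave an adjusted p under 0.05, and only called genes are said to be higher or lower without a further remark.

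In Ewing sarcoma, the fusion of EWSR1 and FLI1 binds GGAA repeats and turns them into enhancers, and dCas9-KRAB silences such an element by attracting chromatin repressors. Among the programmes that a tumor cell can switch on under stress is the integrated stress response. In this response, phosphorylation of the initiation factor eIF2 lowers general protein synthesis while the transcription factor ATF4 is translated, and ATF4 with a C/EBP partner then induces genes for amino acid synthesis, amino acid import and tRNA charging. The heat shock response is separate: its factor HSF1 maintains and induces the cytosolic chaperones through heat shock elements in their promoters.

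The 4 libraries were close in size, with FPKM totals between 953072 and 997300. Their absolute depth is unknown, but the steps between low values placed replicate 2 of eKD1 at 73.9% of the depth of replicate 1, and the eKD2 replicates at 93.8% and 93.2%. The median absolute difference between duplicates was 0.14 in eKD1 and 0.13 in eKD2 on the log2 scale, and it was 0.22 between the group means. The line was checked against its markers. All 7 markers of Ewing sarcoma cells (CD99, FLI1, EWSR1, NKX2-2, NR0B1, STEAP1, LIPI) passed the limit, and limma called 0 of them (1 at an unadjusted p under 0.05, and 0 in a fit of all 8 libraries). Of 11 markers of other cell types 4 passed and 0 were called, 3 being under 0.05 unadjusted and 2 called in the fit of 8. CD3E of T cells and HBB of red cells were listed at 0 in all 4 libraries, while PTPRC, the leukocyte antigen CD45, was at 10.0 and 9.59 FPKM in eKD1, 14.3 and 13.5 FPKM in eKD2 and 4.87 and 5.39 FPKM in control hypoxia. PMEL, of melanocytes, had the largest difference of these markers, at 6.35 and 9.52 FPKM in eKD1, 3.40 and 2.95 FPKM in eKD2 and 4.79 and 5.03 FPKM in control hypoxia (-1.08, limma adjusted p = 0.0793). PMEL passed the limit of 5 FPKM through eKD1 alone, so that it had to differ to be tested.

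LOXHD1, the target of both guides, was low in both groups. LOXHD1 (ENSG00000167210.16_2), which encodes a protein of repeated PLAT domains, is a minus-strand gene of chromosome 18, from 44056935 to 44237183 (GRCh37). It was at 17.3 and 15 FPKM in eKD1, 11.7 and 11.8 FPKM in eKD2 and 93.0 and 91.1 FPKM in control hypoxia. Both eKD2 libraries were below both eKD1 libraries, and the means were 17.6% of the control level in eKD1 and 12.7% in eKD2. The difference between the guides was -0.43 (SE 0.13) and was not called, with a limma adjusted p of 0.114, although it passed in a fit that shared the spread of all 8 libraries (limma adjusted p = 0.0278). Of 12 tested genes of the region, LOXHD1 included, limma called 0 (3 at an unadjusted p under 0.05, and 1, LOXHD1, in the fit of 8 libraries), and the other 11 had differences from -0.07 (ATP5A1) to 0.50 (KATNAL2, a katanin subunit).

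The repressor side of the system was also measured. ZNF10 is the gene whose KRAB domain is commonly fused to dCas9, and its level was 45.1 and 36.2 FPKM in eKD1, 30.7 and 33.9 FPKM in eKD2 and 7.32 and 6.68 FPKM in control hypoxia. All 4 eKD libraries were above both control libraries, and the difference between the guides was not called (-0.32, limma adjusted p = 0.216). Whether these reads came from the vector, and whether the control vector held the KRAB part, was not tested. TRIM28, the corepressor that KRAB domains recruit, was lower in eKD2 by a small amount (-0.30, SE 0.05, limma adjusted p = 0.0497), from 1180.5 and 1136 FPKM in eKD1 to 931 and 953 FPKM in eKD2. Once trends with GC content, exon length and level had been removed, its difference was -0.05 and was not called (limma adjusted p = 0.573). The partners SETDB1, CBX1, CBX3, CBX5, HDAC1 and HDAC2 were not called.

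Across all genes, 414 of 10786 were called, or 3.84%. Of these, 254 (2.35%) were higher in eKD2 and 160 (1.48%) were lower, 99 and 26 of them by at least 2-fold. None of the 414 had overlapping libraries, which by itself says little, since 60.8% of all tested genes did not overlap. For 292 of the tested genes both libraries of a group lay under 5 FPKM, so that they passed through the other group alone, and 32 of these were called. At an unadjusted p under 0.05 the number of all genes was 3189. The calls need both libraries of each group. Without replicate 1 of eKD1 there were 32, without its replicate 2 there were 20, without replicate 1 of eKD2 there were 2 and without its replicate 2 there were 4. Higher genes made up 61.4% of the calls. With median-of-ratios rescaling they made up 48.9% and with equal FPKM totals 71.4%, which moved the median of all genes from 0.05 to 0.00 and 0.08. In the fit that shared the spread of 8 libraries, 1662 genes (15.4%) were called and 400 of the 414 were among them.

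Genes of the integrated stress response and of amino acid supply were higher in eKD2. In 4 lists for this programme, 34 of 58 tested members were called higher and 0 lower, beside 2.35% and 1.48% of all genes. By list, these were 11 of 13 regulators, 7 of 14 enzymes of amino acid and one-carbon synthesis, 7 of 11 amino acid transporters and 9 of 20 cytosolic tRNA synthetases. Their median differences were 1.92, 0.88, 1.06 and 0.74, against 0.05 for all genes tested. Of the 58 members, 55 had a difference above 0. In bulk RNA such a difference can come from more RNA per cell or from more cells with the RNA, and these cannot be told apart.

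**Figure D1:**
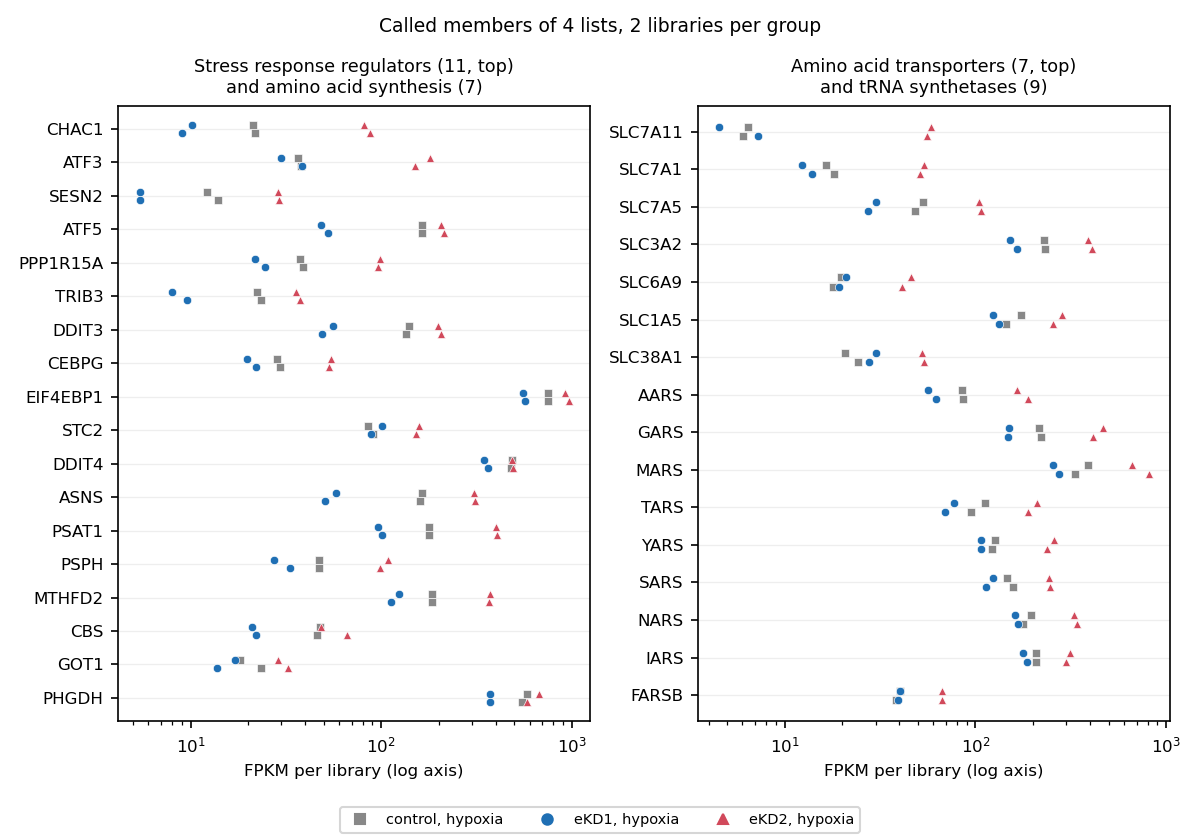
Level in each library, in FPKM on a log axis, of the called members of the 4 lists for the stress response and amino acid supply. Each point is a library, with 2 per group. In all 34 genes both eKD2 libraries lay to the right of both eKD1 libraries, but none of the 414 called genes had overlapping libraries. Of all tested genes 60.8% did not overlap. For most of the 34 the control hypoxia libraries lay between the guides, and over all 10786 genes the control mean did so in 3421.

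Among the regulators, the mRNA of ATF4 itself differed little. ATF4, the central factor of the response, was at 319 and 304 FPKM in eKD1 against 381 and 405 FPKM in eKD2, a difference of 0.34 that was not called (limma adjusted p = 0.0612). Larger differences were found in its targets and partners. CHAC1, which degrades glutathione, was at 10.2 and 9.04 FPKM in eKD1, 80.9 and 87.2 FPKM in eKD2 and 21.4 and 21.7 FPKM in control hypoxia, a difference of 3.0 (SE 0.11, limma adjusted p = 0.0043). The eKD2 level was 8.72-fold that of eKD1, and the control lay between.

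ATF3, a stress-induced transcription factor, was at 29.9 and 38.6 FPKM in eKD1, 180.5 and 151 FPKM in eKD2 and 36.4 and 38.0 FPKM in control hypoxia (2.25, SE 0.16, limma adjusted p = 0.0154). For SESN2, a sestrin that restrains mTORC1 when amino acids are scarce, the levels were 5.45 and 5.40 FPKM in eKD1, 28.9 and 29.0 FPKM in eKD2 and 12.1 and 14.0 FPKM in control hypoxia (2.22, SE 0.11, limma adjusted p = 0.00761). Unlike ATF3, whose control libraries lay at the level of eKD1, SESN2 in the control lay between the guides. The transcription factor ATF5 was at 48.5 and 52.4 FPKM in eKD1, 207 and 214 FPKM in eKD2 and 164 and 164 FPKM in control hypoxia (2.04, SE 0.08, limma adjusted p = 0.00435), so that eKD1 stood 30.7% as high as the control. PPP1R15A, the phosphatase subunit GADD34 that ends the response, was at 21.8 and 24.7 FPKM in eKD1 against 98.3 and 96.2 FPKM in eKD2 (2.02, SE 0.10, limma adjusted p = 0.00694).

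The remaining called regulators were TRIB3 (1.95), the pseudokinase that curbs ATF4, DDIT3 (1.92), the pro-apoptotic factor CHOP, CEBPG (1.33), a dimerization partner of ATF4, EIF4EBP1 (0.74), STC2 (0.71) and DDIT4 (0.46). DDIT3 was at 55.8 and 49.1 FPKM in eKD1, 198 and 205 FPKM in eKD2 and 141 and 136 FPKM in control hypoxia. Its exons overlap those of MARS on the other strand, and exons of ATF5 overlap those of NUP62, and the library kit does not mark strand, so reads of these pairs cannot be fully told apart. CEBPB and ATF4 were the tested regulators not called. NUPR1, which did not pass the limit, was at 0.774 FPKM or lower in eKD1 but reached 4.05 and 2.64 FPKM in eKD2.

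The synthesis genes showed the same direction in all 14 tested members. Asparagine synthetase, ASNS, was at 57.7 and 50.6 FPKM in eKD1, 308 and 309.7 FPKM in eKD2 and 164 and 161 FPKM in control hypoxia (2.49, SE 0.09, limma adjusted p = 0.0043), a level 5.71-fold that of eKD1. PSAT1 and PSPH, successive enzymes of serine synthesis, had differences of 2.02 (SE 0.06, limma adjusted p = 0.0037) and 1.75 (SE 0.13, limma adjusted p = 0.0164). PSAT1 was at 96.6 and 101 FPKM in eKD1, 401 and 405 FPKM in eKD2 and 178 and 178 FPKM in control hypoxia. PHGDH, the first enzyme of the same pathway, was called with a smaller difference of 0.76, and here the control (579.7 and 549 FPKM) lay near eKD2 (676 and 585 FPKM) rather than eKD1 (373 and 371 FPKM).

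In mitochondrial one-carbon metabolism, MTHFD2 was called (1.65, SE 0.07, limma adjusted p = 0.00613), at 123 and 113 FPKM in eKD1 against 375 and 369.8 FPKM in eKD2, while SHMT2 (0.40, limma adjusted p = 0.0679) and MTHFD1L (0.49, limma adjusted p = 0.0712) were not. CBS, which starts the conversion of homocysteine to cysteine, was called at 1.35, and GOT1, the cytosolic aspartate aminotransferase, at 0.95. ALDH18A1, of proline synthesis, had the smallest difference of the list (0.08). PCK2, the mitochondrial form of the enzyme that makes phosphoenolpyruvate and no member of these lists, was among the largest rises of all genes. It was at 9.71 and 8.72 FPKM in eKD1, 80.3 and 80.3 FPKM in eKD2 and 26.6 and 30.6 FPKM in control hypoxia (2.99, SE 0.10, limma adjusted p = 0.00379).

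Of all protein-coding genes, SLC7A11 had the largest called rise. It encodes the cystine-glutamate exchanger xCT and was at 4.56 and 7.24 FPKM in eKD1, 58.4 and 55.7 FPKM in eKD2 and 6.42 and 6.05 FPKM in control hypoxia (3.10, SE 0.21, limma adjusted p = 0.0148). Control and eKD1 libraries overlapped for this gene, and eKD2 was 9.67-fold above eKD1. Its heavy chain SLC3A2 (1.33) and SLC7A5 (1.84), another light chain of SLC3A2, which carries leucine into the cell, were called as well. SLC7A5 was at 30.0 and 27.3 FPKM in eKD1 against 104 and 107 FPKM in eKD2. The arginine and lysine carrier SLC7A1 (1.93), the glutamine carriers SLC1A5 (1.06) and SLC38A1 (0.85) and the glycine carrier SLC6A9 (1.07) completed the called transporters. SLC38A2, SLC1A4, SLC43A1 and SLC7A3 were not called, with differences from 0.17 to 0.78.

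The tRNA synthetases ranged from -0.31 to 3.39. Those for alanine (AARS, 1.56), glycine (GARS, 1.56), methionine (MARS, 1.47), threonine (TARS, 1.43), tyrosine (YARS, 1.20), serine (SARS, 1.04), asparagine (NARS, 1.02) and isoleucine (IARS, 0.75) were higher in eKD2, as was the beta subunit for phenylalanine (FARSB, 0.73). GARS was at 151 and 148 FPKM in eKD1 against 468 and 415 FPKM in eKD2 (SE 0.08, limma adjusted p = 0.00792), and AARS was at 56.8 and 61.8 and 165 and 188 FPKM (SE 0.10, limma adjusted p = 0.0138). The enzymes for histidine (HARS, -0.31), glutamine (QARS, -0.28), arginine (RARS, -0.13) and lysine (KARS, 0.09) and the alpha subunit for phenylalanine (FARSA, 0.04) were not called. Between these and the called enzymes lay those for valine (VARS, 0.25), glutamate and proline (EPRS, 0.51), aspartate (DARS, 0.51) and leucine (LARS, 0.51, limma adjusted p = 0.0506), which were not called either. In CARS, for cysteine, the difference of 3.39 fell just short (limma adjusted p = 0.0501), with 111 and 38.1 FPKM in the eKD1 duplicates and 748 and 645 FPKM in eKD2. WARS duplicates disagreed within eKD2 (80.9 and 349 FPKM) and were 76.4 and 71.0 FPKM in eKD1.

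The number of calls in the 4 lists needed all 4 libraries. It was 10 without replicate 1 of eKD1, 9 without its replicate 2 and 0 without either replicate of eKD2, with 54 or 55 of 58 members above 0 in each case. It was 20 with a filter of 1 FPKM, 4 without a filter, 25 without a variance trend and 34 once trends with GC content, exon length and level had been removed. With the replicate number as a block it was 5, and with the numbers crossed between the groups 18. The fit of 8 libraries, which called 15.4% of all genes, gave 43.

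Promoters of the called members were read for the C/EBP-ATF response element, the composite site that ATF4 binds with a C/EBP partner. The letters searched were TGATGNAAN on both strands, within 250 bases before the RefSeq start of each gene (GRCh38.p14). They were found in 6 of 30 called members of the 4 lists with a promoter in the RefSeq set, or 20.0%, in 15.2% of tested members, called or not, in 2.20% of all 15843 protein-coding promoters and in 1.20% of those of tested genes. Such a match is a description and no measure of binding. The 6 promoters are shown 5′ to 3′ in the direction of the gene, with up to 40 bases on each side and the match in capitals. They are shown because they belong to called members and let the bases around the match be read. Likeness of the matched letters was set by the search, and in CHAC1, AARS, GOT1 and IARS the match lies on the opposite strand.
CHAC1 (chr15:40953221-40953309, plus strand, GRCh38.p14): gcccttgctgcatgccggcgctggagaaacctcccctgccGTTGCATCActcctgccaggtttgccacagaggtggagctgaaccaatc
ASNS (chr7:97872428-97872516, minus strand, GRCh38.p14): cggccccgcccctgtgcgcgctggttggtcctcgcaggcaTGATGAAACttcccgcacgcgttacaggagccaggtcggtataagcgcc
ATF3 (chr1:212565176-212565264, plus strand, GRCh38.p14): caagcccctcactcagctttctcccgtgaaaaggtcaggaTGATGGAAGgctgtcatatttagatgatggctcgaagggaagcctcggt
AARS (chr16:70289646-70289734, minus strand, GRCh38.p14): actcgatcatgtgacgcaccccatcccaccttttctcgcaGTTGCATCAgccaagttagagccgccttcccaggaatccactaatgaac
GOT1 (chr10:99430775-99430863, minus strand, GRCh38.p14): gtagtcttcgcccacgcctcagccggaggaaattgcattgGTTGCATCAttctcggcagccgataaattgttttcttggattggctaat
IARS (chr9:92293698-92293751, minus strand, GRCh38.p14): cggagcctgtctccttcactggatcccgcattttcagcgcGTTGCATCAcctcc
The distance from the start was 210 bases in CHAC1, 68 in ASNS, 191 in ATF3, 188 in AARS, 199 in GOT1 and 14 in IARS, counted to the first base of the match. The log2 differences of these genes ranged from 0.75 in IARS to 3.0 in CHAC1, and called genes without these letters in the window, such as TRIB3 (1.95) and SESN2 (2.22), lay within the same range.

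Cytosolic chaperones moved the other way. Of 20 tested genes in the heat shock list, 11 were called lower in eKD2 and 1 higher, with a median of -0.40, beside 1.48% and 2.35% of all genes. HSPA8, the constitutive cytosolic HSP70 that is among the abundant mRNAs of these cells, was at 2244 and 2149 FPKM in eKD1, 639 and 679 FPKM in eKD2 and 1738 and 1687 FPKM in control hypoxia (-1.74, SE 0.05, limma adjusted p = 0.0037). Its level in eKD2 was 30.0% of that in eKD1, and the control libraries stood nearer to eKD1. The inducible HSPA1A, which passed the limit of 5 FPKM through eKD1 alone, was low, at 11.8 and 14.6 FPKM in eKD1 against 2.89 and 3.84 FPKM in eKD2 (-1.71, SE 0.20, limma adjusted p = 0.0393). HSPA1B was also called (-0.91), but HSPA1A and HSPA1B are near-identical copies and the split of reads between them is uncertain.

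The co-chaperones of HSP70 followed. DNAJA1, a J protein, was at 207 and 197 FPKM in eKD1, 80.3 and 78.5 FPKM in eKD2 and 164 and 163 FPKM in control hypoxia (-1.34, SE 0.07, limma adjusted p = 0.00792). DNAJB1, another J protein, differed by -0.86 and HSPH1, a nucleotide exchange factor, by -0.83. In the HSP90 system, HSP90AA1 (-0.75), HSP90AB1 (-0.47) and the activator AHSA1 (-0.68) were lower. HSP90AA1 was at 623 and 597 FPKM in eKD1, 372 and 351 FPKM in eKD2 and 622 and 597 FPKM in control hypoxia, so that eKD1 and the control were alike in level. The mitochondrial chaperonin pair HSPD1 (-0.33) and HSPE1 (-0.80) was lower too. HSPA9, the mitochondrial HSP70, was the exception, higher in eKD2 by 0.74 (SE 0.09, limma adjusted p = 0.038), at 442 and 379.9 FPKM in eKD1 against 686 and 684 FPKM in eKD2. Not called were HSPB1, FKBP4, STIP1, BAG3, CHORDC1, CRYAB, HSPA4 and HSPA4L, with differences from -0.32 to 0.27. The number called lower was 2 with a filter of 1 FPKM, 3 without a variance trend and 1 with the replicate number as a block. It was 10 with the GC content, exon length and level trends removed and 12 in the fit of 8 libraries. Without replicate 1 or replicate 2 of eKD1 1 gene of the list was called lower, and without replicate 1 or replicate 2 of eKD2 0 were, with 15 to 17 of 20 members still below 0.

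The letters GAANNTTC, the inner repeat of a heat shock element, were present in 4 of 11 promoters of called heat shock genes (36.4%) and in 4.81% of all 15843 protein-coding promoters. They were in 33.3% of tested heat shock genes whether called or not, in 13.3% of called members of the 4 stress and amino acid lists, which were higher, and in 4.80% of all genes called lower. Each match is read on both strands at once and counted a single time. In ASNS the letters GAAACTTC, a match of this motif, overlap the C/EBP-ATF match shown above, and no other printed window held both motifs. The 4 windows are printed because they belong to the members with the largest falls, with 1 of 2 matches shown for HSPA8.
HSPA8 (chr11:123062139-123062226, minus strand, GRCh38.p14): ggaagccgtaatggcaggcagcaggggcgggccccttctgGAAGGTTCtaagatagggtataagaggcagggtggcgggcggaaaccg
HSPA1A (chr6:31815397-31815484, plus strand, GRCh38.p14): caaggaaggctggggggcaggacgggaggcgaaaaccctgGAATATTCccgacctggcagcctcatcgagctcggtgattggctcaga
DNAJA1 (chr9:33025035-33025122, plus strand, GRCh38.p14): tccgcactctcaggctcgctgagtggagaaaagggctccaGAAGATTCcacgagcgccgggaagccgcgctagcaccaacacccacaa
HSPA1B (chr6:31827593-31827680, plus strand, GRCh38.p14): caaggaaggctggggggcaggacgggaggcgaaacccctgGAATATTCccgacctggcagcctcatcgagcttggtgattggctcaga
The windows of HSPA1A and HSPA1B hold the same base at 86 of 88 positions, and the matches began 50 bases before the start in HSPA8, 106 in HSPA1A, 198 in DNAJA1 and 105 in HSPA1B.

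**Figure D2:**
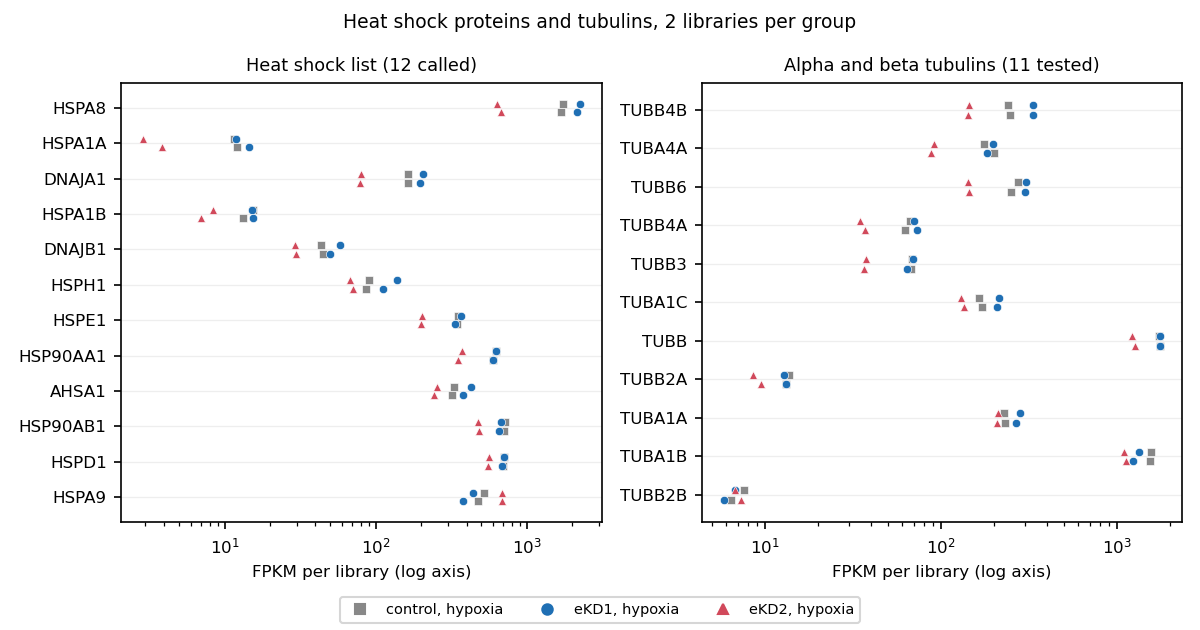
Level in each library, in FPKM on a log axis, of the 12 called genes of the heat shock list and of the 11 tested alpha and beta tubulins. Each point is a library, with 2 per group. The eKD2 libraries lay to the left for 11 of the 12 chaperones, with HSPA9 as the exception, and for all tubulins but TUBB2B. None of the 414 called genes had overlapping libraries, and 60.8% of all tested genes did not overlap.

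Tubulin genes, the building blocks of microtubules, were lower in eKD2. In the list for actin, adhesion and tubulin, 6 of 26 tested genes were called lower and 0 higher, beside 1.48% and 2.35% of all genes, with a median of -0.20. Among the alpha and beta tubulins as a family, which was set apart after the values were seen, 7 of 11 were lower with a median of -0.67. Without any 1 of the eKD1 or eKD2 libraries limma called 0 of the tubulins, with 10 of 11 below 0 each time. TUBB4B was at 333 and 335 FPKM in eKD1, 144 and 143 FPKM in eKD2 and 242 and 245 FPKM in control hypoxia (-1.21, SE 0.06, limma adjusted p = 0.00689). TUBA4A (-1.09), TUBB6 (-1.07), TUBB4A (-0.98), TUBB3 (-0.84), TUBA1C (-0.67) and TUBB (-0.50) were the others. TUBB3, the neuronal beta tubulin, was at 69.3 and 64.5 FPKM in eKD1, 37.6 and 36.3 FPKM in eKD2 and 68.8 and 67.8 FPKM in control hypoxia. Tubulin genes resemble each other in sequence, and how reads were divided among them is uncertain.

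Of the actin genes and their partners, ACTG1 (-0.65, limma adjusted p = 0.0143), the crosslinker ACTN4 (-0.47) and the actin-sequestering peptide TMSB10 (-0.41) were lower. ACTG1 was at 2799 and 2793 FPKM in eKD1 against 1736 and 1831 FPKM in eKD2. ACTB missed the threshold at -0.50 (limma adjusted p = 0.0513). The integrins ITGB1, ITGAV and ITGA5, vinculin (VCL), talin (TLN1) and the tropomyosins were not called, and ITGA5 had the highest difference of the list (0.43). The microtubule-associated protein gene MAP1A, outside the list, was lower by the rule for largest falls, at 64.8 and 60.4 FPKM in eKD1, 23 and 23.4 FPKM in eKD2 and 43.4 and 44.1 FPKM in control hypoxia (-1.39, SE 0.09, limma adjusted p = 0.0132).

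In the endoplasmic reticulum, where the unfolded protein response governs chaperones, 4 of 20 tested genes were lower and 1 was higher, beside 1.48% and 2.35% of all genes, with a median of -0.26. With the trends removed 2 were lower, and without any 1 of the eKD1 or eKD2 libraries limma called 0. HSPA5, the chaperone BiP, was at 284 and 278 FPKM in eKD1, 160.5 and 151 FPKM in eKD2 and 276 and 276 FPKM in control hypoxia (-0.85, SE 0.06, limma adjusted p = 0.017). The neurotrophic chaperone MANF (-0.58), the disulfide isomerase PDIA4 (-0.51) and the lectin chaperone CALR (-0.42) were lower as well, although CALR was at -0.22 and not called with the trends removed (limma adjusted p = 0.0828). XBP1, the transcription factor of this response, was not called (-0.60, limma adjusted p = 0.0579). HERPUD1, a component of ER-associated degradation that ATF4 can also induce, was higher in eKD2, at 35.3 and 45.3 FPKM in eKD1, 102 and 112 FPKM in eKD2 and 52.1 and 61.3 FPKM in control hypoxia (1.39, SE 0.14, limma adjusted p = 0.0327).

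**Figure D3:**
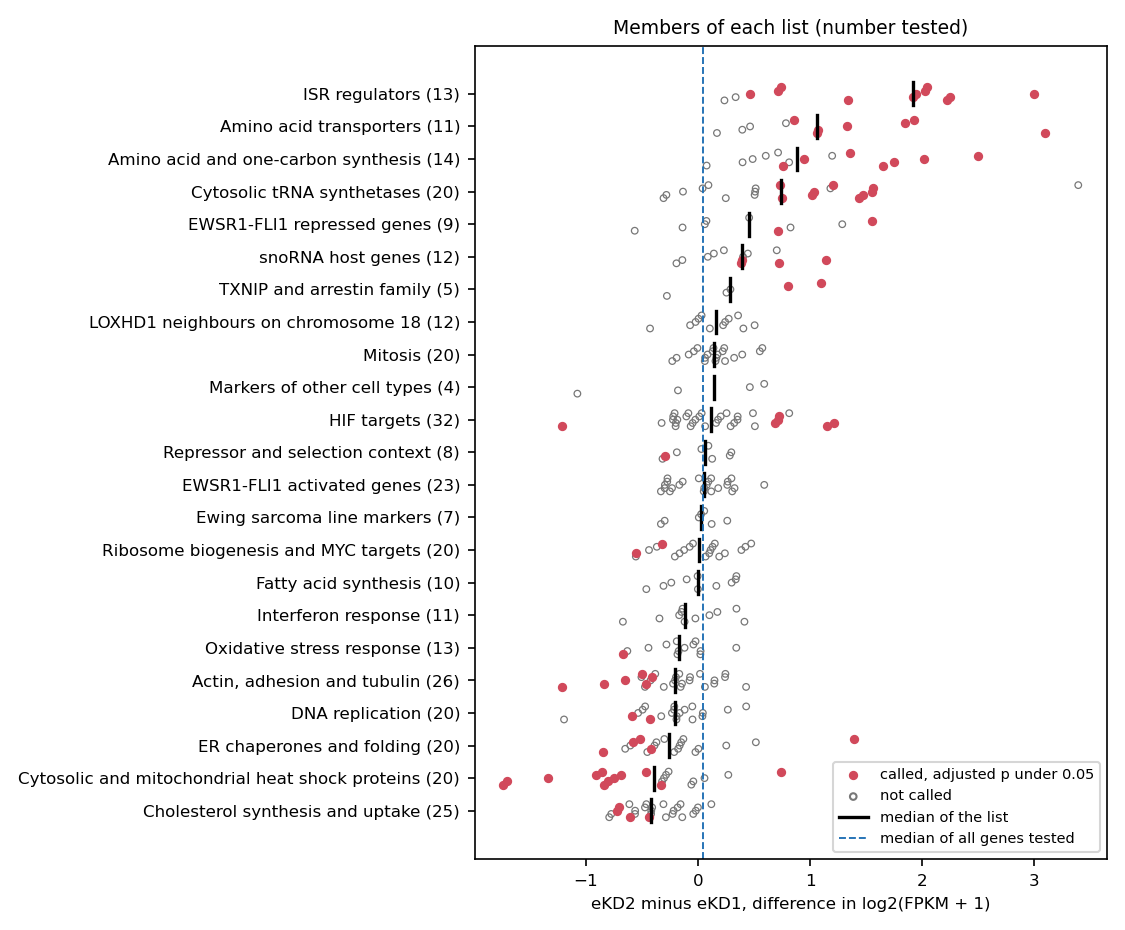
Difference between eKD2 and eKD1 in log2(FPKM + 1) for each tested member of each list, with the number of tested members in parentheses. Filled points were called, open points were not, black bars mark list medians and the dashed line marks the median of all genes tested, 0.05. The stress response and amino acid lists lay furthest to the right, and the cholesterol and heat shock lists furthest to the left.

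Genes of cholesterol synthesis were low in eKD2 by modest amounts. Of 25 tested members, 24 had a difference below 0 and the median was -0.42, but 4 were called, all lower, beside 1.48% of all genes. Among these were NSDHL (-0.72, limma adjusted p = 0.0486), IDI1 (-0.70, limma adjusted p = 0.0451) and FDFT1 (-0.43, limma adjusted p = 0.0497), enzymes of successive parts of the pathway. IDI1 was at 30.4 and 28.9 FPKM in eKD1, 17.9 and 17.7 FPKM in eKD2 and 23.2 and 21.2 FPKM in control hypoxia, so that eKD1 stood above the control and eKD2 below it. The synthase HMGCS1 (-0.47, limma adjusted p = 0.0604) and the epoxidase SQLE (-0.56, limma adjusted p = 0.067) were not called. SREBF2, the factor that drives the pathway, was at 92.5 and 79.9 FPKM in eKD1 against 90.1 and 96.9 FPKM in eKD2 (0.12). Of 10 genes of fatty acid synthesis limma called 0 (2 at an unadjusted p under 0.05, and 1 in the fit of 8 libraries), and their median was 0.00. Over all 10786 genes, 3189 had an unadjusted p under 0.05. The fit of 8 libraries called 15.4% of them, 700 genes being lower. For cholesterol synthesis, the fit of 8 libraries called 10 genes, all lower, and 0 were called without replicate 1 or 2 of eKD1 or replicate 1 or 2 of eKD2, while 14 were under an unadjusted p of 0.05 with all libraries.

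HIF targets are genes induced in low oxygen, the condition of eKD1, eKD2 and control hypoxia. Of 32 tested, 5 were higher and 1 was lower, beside 2.35% and 1.48% of all genes, with a median of 0.11. Without any 1 of the eKD1 or eKD2 libraries limma called 0 of the HIF targets, and likewise 0 of the genes for actin, adhesion and tubulin. The higher genes were the MAX partner MXI1 (1.21, limma adjusted p = 0.0165), ANKRD37 (1.15, limma adjusted p = 0.0476), the pyruvate dehydrogenase kinase PDK1 (0.72, limma adjusted p = 0.043), the lysyl oxidase LOX (0.72, limma adjusted p = 0.0381) and the hexokinase HK2 (0.69, limma adjusted p = 0.0343). PDK1 was at 75.1 and 81.2 FPKM in eKD1, 137 and 122 FPKM in eKD2 and 70.7 and 76.1 FPKM in control hypoxia, and MXI1 was at 23.7 and 25.1, 55.9 and 59.5 and 27.4 and 23.7 FPKM. In both, the control lay at the eKD1 level. The lower gene was ANGPTL4, an inhibitor of lipoprotein lipase, at 71.1 and 76.8 FPKM in eKD1, 27.9 and 34.9 FPKM in eKD2 and 52.6 and 45.1 FPKM in control hypoxia (-1.22, SE 0.13, limma adjusted p = 0.0354).

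The glycolytic targets had small differences. LDHA was at 5664 and 5816 FPKM in eKD1 against 5909 and 5829.9 FPKM in eKD2 (0.03, SE 0.03), and PGK1 was at 4695 and 4523 and 4411 and 4658 FPKM (-0.02, SE 0.04). CA9 (-0.32), VEGFA (0.25), SLC2A1 (0.20), ADM (0.01) and BNIP3 (0.32, limma adjusted p = 0.0608) were not called either.

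Targets of the Ewing fusion gave 0 calls among activated genes and 2 among repressed genes. Of 23 tested genes that EWSR1-FLI1 activates, limma called 0 (8 at an unadjusted p under 0.05, and 6 in the fit of 8 libraries), with a median of 0.06, or -0.06 with the GC content, exon length and level trends removed, and differences from -0.33 (NKX2-2) to 0.59 (NPY5R). Beside these counts stand 3189 of all 10786 genes at an unadjusted p under 0.05 and 15.4% called in the fit of 8 libraries. FLI1, which gives the fusion its DNA-binding part, was at 23.1 and 25.2 FPKM in eKD1 against 23.7 and 24.8 FPKM in eKD2 (0.01, SE 0.10). The cyclin gene CCND1 differed by -0.23 (limma adjusted p = 0.0726) and ID2, an inhibitor of differentiation, by -0.30 (limma adjusted p = 0.0704). Of 9 tested genes that the fusion represses, 2 (22.2%) were higher in eKD2 and 0 lower, beside 2.35% and 1.48% of all genes. The higher genes were the matricellular protein gene CYR61 and LOX. CYR61 was at 45.7 and 45.4 FPKM in eKD1, 136 and 135 FPKM in eKD2 and 50.6 and 49.2 FPKM in control hypoxia (1.55, SE 0.07, limma adjusted p = 0.00653), while its relative CTGF missed the threshold (0.83, limma adjusted p = 0.0522).

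Proliferation was read in lists for DNA replication, mitosis and ribosome biogenesis. Of 20 genes of DNA replication, 2 (10.0%) were lower and 0 higher, beside 1.48% and 2.35% of all genes. These were FEN1 (-0.59), the flap endonuclease, and RRM2 (-0.43), a subunit of ribonucleotide reductase. PCNA (-0.49, limma adjusted p = 0.0516) and MCM5 (-0.53, limma adjusted p = 0.0518) were not called. The median of this list was -0.20, 16 of 20 members were below 0, 11 had an unadjusted p under 0.05 and 8 were called lower in the fit of 8 libraries. Of all 10786 genes, 3189 had an unadjusted p under 0.05. In the fit of 8 libraries 15.4% of all genes were called, 700 of them lower. Of 20 mitotic genes limma called 0 (4 at an unadjusted p under 0.05, and 2 in the fit of 8 libraries), with a median of 0.15 and MKI67 at 0.06. Among 20 genes of ribosome biogenesis, 2 (10.0%) were lower and 0 higher, beside the same shares of all genes. The lower genes were the nucleolar proteins NOP2 (-0.55) and NOP56 (-0.32), and the list median was 0.01. MYC was at 230.2 and 241 FPKM in eKD1, 275 and 248 FPKM in eKD2 and 152 and 149 FPKM in control hypoxia, with a difference of 0.15 that was not called.

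Calls in the smaller lists stand beside 2.35% called higher and 1.48% called lower of all genes. TXNIP, which limits glucose uptake, and its relative ARRDC4 were higher in eKD2, at 0.80 (limma adjusted p = 0.0444) and 1.10 (limma adjusted p = 0.0343), 2 of 5 tested in their family. Of 12 snoRNA host genes, which carry snoRNAs in their introns, 4 (33.3%) were higher with a list median of 0.39. SNHG1 was at 407 and 365 FPKM in eKD1, 857 and 841 FPKM in eKD2 and 505 and 494 FPKM in control hypoxia (1.14, SE 0.07, limma adjusted p = 0.0124), followed by SNHG15 (0.73), ZFAS1 (0.40) and GAS5 (0.38). In the oxidative stress list 1 of 13 was called, PGD of the pentose phosphate pathway (-0.67, limma adjusted p = 0.0483), and the NRF2 target NQO1 differed by -0.18. Of 11 interferon response genes limma called 0 (2 at an unadjusted p under 0.05, and 0 in the fit of 8 libraries), and of the metallothioneins 0 passed the limit on level. Mitochondrially encoded genes were not analysed here.

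**Figure D4:**
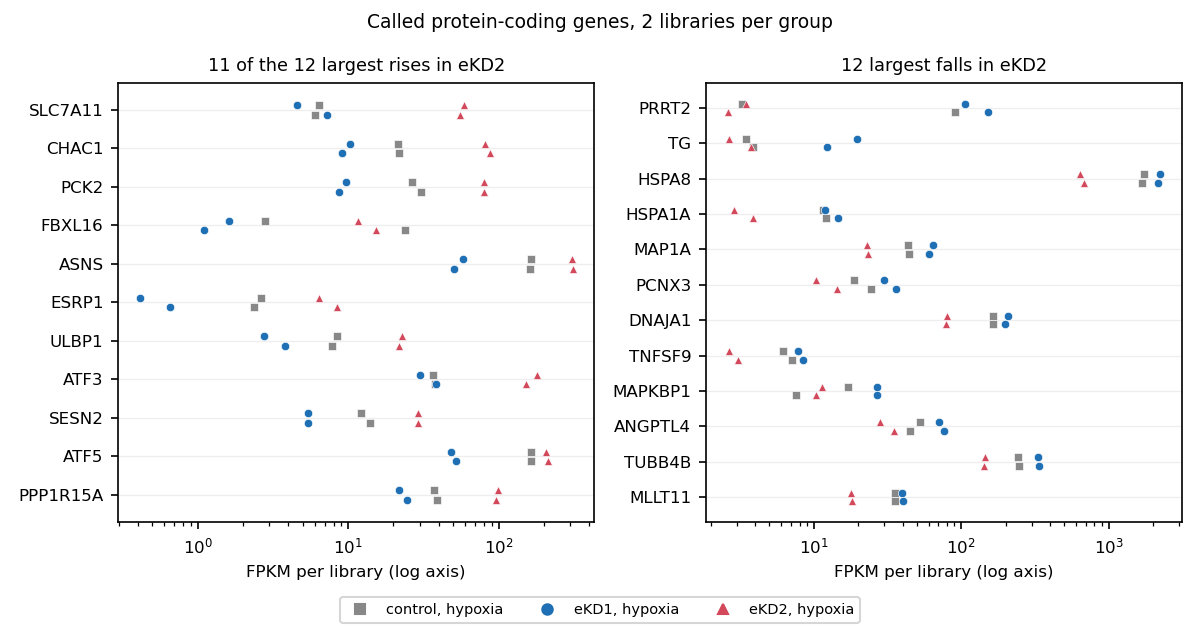
Level in each library, in FPKM on a log axis, of 11 of the 12 largest rises and of the 12 largest falls in eKD2 among called protein-coding genes of at least 500 nt of exon. Each point is a library, with 2 per group. The control hypoxia libraries lay apart from each other for PRRT2, FBXL16 and MAPKBP1.

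Among the 12 largest rises in protein-coding genes, 7 belonged to the stress and amino acid lists. The others included PCK2, described above, and FBXL16, ESRP1 and ULBP1. ULBP1, a ligand of the natural killer receptor NKG2D, was at 2.78 and 3.80 FPKM in eKD1, 22.7 and 21.6 FPKM in eKD2 and 8.39 and 7.84 FPKM in control hypoxia (2.44, SE 0.17, limma adjusted p = 0.0152). ESRP1, an epithelial splicing regulator, was at 0.412 and 0.654 FPKM in eKD1 against 6.40 and 8.49 FPKM in eKD2 (2.45), with both eKD1 libraries under the limit of 5 FPKM. FBXL16 and ULBP1 likewise passed this limit through eKD2 alone, so that they had to differ to be tested. FBXL16, which encodes an F-box protein, was at 1.62 and 1.10 FPKM in eKD1 against 11.5 and 15.3 FPKM in eKD2 (2.61), and the control duplicates disagreed, at 2.80 and 23.8 FPKM.

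The largest fall was in PRRT2, a gene of presynaptic membranes, at 107 and 151 FPKM in eKD1 against 3.47 and 2.60 FPKM in eKD2 (-5.00, SE 0.22, limma adjusted p = 0.00613). Its control duplicates, at 3.25 and 90.7 FPKM, covered nearly the whole range between the guides. PRRT2, TG and TNFSF9 passed the limit of 5 FPKM through eKD1 alone. TG, the thyroglobulin gene, was at 19.7 and 12.2 FPKM in eKD1, 2.68 and 3.74 FPKM in eKD2 and 3.48 and 3.89 FPKM in control hypoxia (-1.99, limma adjusted p = 0.0489), with eKD1 as the group that stood apart. PCNX3 (-1.36), TNFSF9 (-1.24), which encodes the ligand 4-1BBL, MAPKBP1 (-1.23) and MLLT11 (-1.10) made up the remainder with the chaperone, tubulin, MAP1A and ANGPTL4 genes already given. MLLT11 was even in every group, at 39.8 and 40.1 FPKM in eKD1, 17.9 and 18.1 FPKM in eKD2 and 35.4 and 35.3 FPKM in control hypoxia. Adjusted p-values of single genes rested on all 4 libraries, since leaving out replicate 1 or replicate 2 of eKD2 ended 69 of the 69 calls among the named genes each time, and leaving out replicate 1 or 2 of eKD1 ended 57 and 59, with 0 changes of direction.

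The control hypoxia libraries, which were tested against neither guide, showed on which side of the control each guide stood. For 181 of the 254 genes higher in eKD2, the control mean lay between the guides, for 72 it lay below both and for 1 above both. It was nearer to eKD1 in 206 and to eKD2 in 48. For the 160 genes lower in eKD2, the control lay between in 112, above both in 40 and below both in 8, and it was nearer to eKD1 in 111. Over all 10786 genes tested, the control lay between in 3421, above both in 3187 and below both in 4178, and it was nearer to eKD1 in 6628. Called genes were chosen for a gap between the guides, which leaves more room for the control to lie between. The same limit holds for the medians of called members that follow. Among the 11 called stress regulators, the median difference from the control was -0.69 in eKD1 and 0.81 in eKD2, both on the log2 scale, so that eKD1 lay below the control and eKD2 above it. For the 7 synthesis genes these medians were -0.65 and 0.92. For the 12 called heat shock genes they were 0.11 and -0.66, and for the 9 tRNA synthetases -0.36 and 0.94. Both differences share the control libraries and are given as levels only.

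Differences between the guides also moved with properties of the transcripts. The median was 0.19 among the genes with the lowest GC content when genes were cut into 4 bins of equal size. In the next bins it was 0.09, -0.01 and, for the highest GC content, -0.09. By exon length it ran from -0.02 in the shortest bin to 0.14 in the longest. Genes higher in eKD2 had a median GC content of 43.0% and genes lower in eKD2 of 52.9%, beside 47.6% for all tested. By chromosome the medians ranged from -0.06 on chromosome 19 to 0.19 on chromosome 4, and from -0.07 to 0.05 once trends with GC content, exon length and level had been removed. With those trends removed, 272 of 10720 genes were called, 244 of them among the 414. The list medians were then 1.95 for the regulators, 0.57 for the tRNA synthetases, -0.40 for the heat shock genes, -0.42 for cholesterol synthesis, -0.65 for the tubulins and 0.21 for the HIF targets. Calls lost with the trends removed included those of ESRP1, TG, TNFSF9, MANF, CALR, HSPA1B, FDFT1, ANKRD37 and PDK1. Also lost were those of LOX, NOP2, NOP56, ACTN4, PGD, SNHG15, GAS5 and TRIM28, and all of these genes kept their direction. They are the losses within the set of named genes followed across settings, which leaves out some called list members. Further calls were lost outside that set. In the synthesis list 6 members were called with the trends removed, against 7 before. What made the trend was not tested.

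**Figure D5:**
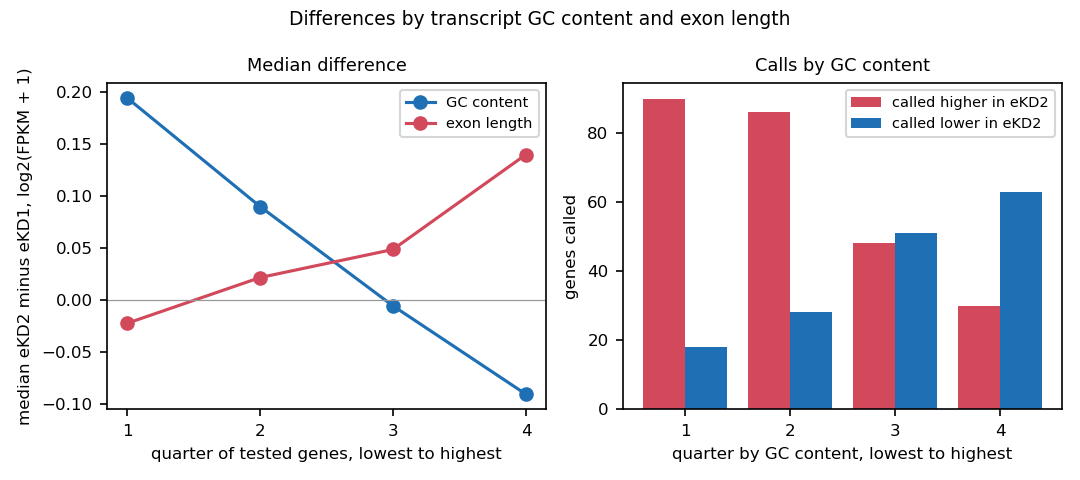
Left, median difference between eKD2 and eKD1 in log2(FPKM + 1) in 4 equal bins of the tested genes, from the lowest to the highest GC content or exon length. Right, number of genes called higher and lower in eKD2 in each bin of GC content, with 90 higher and 18 lower in the lowest bin and 30 higher and 63 lower in the highest.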

How the data were processed

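Poly-A selected RNA of SK-N-MC cells was sequenced in 8 libraries. The authors mapped single-end reads with STAR (GRCh37) and quantified genes through cufflinks and cuffnorm, and what they deposited is FPKM per gene. No counts were used here, so limma was run on log2(FPKM + 1). Genes that reached 5 FPKM in 2 or more of the 4 eKD libraries were fitted with limma 3.58.1 in R 4.3.3 (lmFit, eBayes with a variance trend, two-sided), with Benjamini-Hochberg adjustment across the 10786 genes tested. Scripts were tested on simulated data. Groups came from the sample titles. The labels do not say whether duplicates were separate cultures, so p-values measure only the spread between these libraries. Members, gene lists and tests were chosen with earlier results of these data known. Named genes are LOXHD1, list members, and the 12 genes that rose most and 12 that fell most, taken from called protein-coding genes of at least 500 nt of exon whose groups did not overlap. The tubulin, proteasome and ribosomal protein families, and other genes so marked, were named after their values were seen. Annotation was GENCODE version 44 on GRCh37, which matched 99.4% of tested genes, and promoters were from RefSeq (GRCh38.p14). Positions, GC content and lengths came from that annotation. FPKM inflates very short genes, and reads of overlapping genes are divided by estimation. Alternatives changed the pseudocount, filter, scaling, variance trend, replicate block and the libraries in the fit. Some list members and 1 of the largest rises are counted but not reported here by name.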

Additional observations from a re-analysis of the deposited data

How the results depend on the processing

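The number of genes called between eKD2 and eKD1 was 414 and changed with most settings. It was 463 with a pseudocount of 0.1, 482 with equal totals and 544 after median-of-ratios rescaling. It was 62 with a filter of 1 FPKM in 2 of 8 libraries, 13 without a filter, 126 without a variance trend, 849 among protein-coding genes of at least 500 nt and 1662 in the fit of 8 libraries. Leaving out 1 library gave between 2 and 32. With the replicate number as a block (replicate block) it was 14. The numbers are not known to pair the samples, since deviations of same-numbered libraries correlated at -0.10, and the crossed pairing, added after seeing the data, gave 42 calls. Removing trends with GC content, exon length and level, also added later, gave 272. Of the 70 named genes, 0 changed direction under any setting run, the replicate block kept the call or its absence for 8, and LOXHD1 passed the threshold in the fit of 8 libraries. The list medians stayed within 1.83 and 1.96 for the stress regulators, within -0.49 and -0.36 for the heat shock genes and within -0.46 and -0.31 for cholesterol synthesis. Medians of the EWSR1-FLI1 activated, Ewing marker, fatty acid, interferon, other cell type and ribosome biogenesis lists changed sign under at least 1 setting. With 2 libraries a group and unknown depth, small differences in low genes were not detectable.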

Other observations

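Further genes, chosen after their values were seen, were called between the guides outside the lists of the report. The AP-1 gene JUN was at 36.7 and 38.0 FPKM in eKD1, 87.8 and 83.3 FPKM in eKD2 and 21.1 and 21.9 FPKM in control hypoxia (1.17, SE 0.08, limma adjusted p = 0.0148), with all groups apart. JDP2, a repressor that pairs with JUN and ATF3, was at 15.1 and 15.9 FPKM in eKD1, 56.9 and 62.7 FPKM in eKD2 and 20.8 and 16.6 FPKM in control hypoxia (1.88). The BH3-only gene PMAIP1, which encodes NOXA, was at 26.7 and 26.1 FPKM in eKD1 against 68.2 and 64.6 FPKM in eKD2 (1.30, limma adjusted p = 0.0142). H1F0, the linker histone of slowly dividing cells, was at 74.1 and 69.5 FPKM in eKD1, 251 and 254 FPKM in eKD2 and 85.8 and 80.8 FPKM in control hypoxia (1.80), and TSC22D3, a leucine zipper gene that glucocorticoids induce, differed by 1.69. VLDLR, a lipoprotein receptor, was higher by 1.40 and ADM2, a peptide hormone gene, by 1.95.

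Lower in eKD2 were PRDX1, an abundant peroxiredoxin, at 1649.6 and 1784 FPKM in eKD1, 824 and 822 FPKM in eKD2 and 1842 and 1799 FPKM in control hypoxia (-1.06, SE 0.05, limma adjusted p = 0.00792), and VCP, the segregase that feeds proteins to the proteasome, at 338 and 341 FPKM in eKD1 against 162 and 178 FPKM in eKD2 (-0.99). Of 36 proteasome subunit genes, 4 were called lower and 0 higher, beside 1.48% and 2.35% of all genes, with a median of -0.20. The cyclin gene CCNE1 was at 23.7 and 23.6 FPKM in eKD1, 10.6 and 10.5 FPKM in eKD2 and 18.5 and 18.4 FPKM in control hypoxia (-1.10, limma adjusted p = 0.0252), and FSCN1, the actin bundler fascin, differed by -0.91. Of 83 cytosolic ribosomal protein genes, 3 were called lower and 0 higher, beside the same shares of all genes, with a median of -0.11. The median became 0.08 once trends with GC content, exon length and level had been removed. The direction of this family therefore depended on that step.

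Of 174 tested genes under 300 nt of exon or of a small RNA class 19 were called, beside 3.84% of all genes. Several of these, such as SNORD33 and SNORA26, were listed at 0 in both eKD1 libraries. Such genes passed the limit of 5 FPKM through eKD2 alone, so that they had to differ to be tested. SNORD33 was at 858 and 1327 FPKM in eKD2 and listed at 0 in both control libraries as well. Chromosome 8 had 31 calls among 432 tested genes, or 7.18%, beside 3.84% of all genes, and its median difference was 0.12. The share was not tested, since genes of 1 chromosome are not replicates.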
